A study of Arabidopsis thaliana with 4 samples.

Results

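Legume-type lectins are carbohydrate-binding proteins that fold like the storage lectins of legume seeds. In Arabidopsis the same domain occurs in soluble, secreted proteins and, joined to a kinase, in L-type lectin receptor kinases, and several of the soluble genes are known as responders to pathogens, chitin, wounding or defence hormones. AT5G03350 encodes a protein known as a salicylic acid-induced lectin-like protein that acts in resistance to bacteria. AT3G15356 and AT3G16530 are known to be induced by chitin, and AT1G53070 and AT1G53080 are neighbouring genes of the same family.

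The genes described are these 5 soluble legume-type lectin genes, chosen by family with the rsa3-1 to wild type differences already known. A probe set names 4 of the 5, out of 13333 genes named on the array and 22746 probe sets that are not array controls. The platform annotation names no probe set for AT3G15356, which was not analysed here. Because the choice was made with this contrast in view, the values of the 4 genes are given as a description, and whether the fit over all probe sets called them is stated as a count from which nothing is read. A gene is called measured where a probe set names it alone in the annotation used. Genes not measured may be among the 8730 probe sets with no name or the 503 that name several genes.

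RNA of whole Arabidopsis thaliana seedlings, 6 days old and kept for 24 h on 120 mM NaCl, was hybridised to 4 Affymetrix ATH1 arrays, on which a set of short probes reports on each transcript. Of these, 2 arrays held the rsa3-1 mutant and 2 the wild type, which the design text calls biological replicates. Both genotypes are in the Columbia gl1 background and carry a luciferase transgene driven by the RD29A promoter. RSA3 (AT2G20370, also MUR3 or KAM1) encodes a galactosyltransferase of xyloglucan, a hemicellulose of the primary wall. No probe set is named for it, so the mutated gene could not be used to check the labels, and 1 mutant allele was profiled. All 4 arrays had salt, so every comparison is between genotypes under salt.

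The values are RMA values on the log2 scale, on which a step of 1 is a doubling. RMA corrects background, normalizes between arrays and summarises the probes of a set. Probe sets differ in how brightly they report, so levels are compared between genotypes for a gene and not between genes. Array medians lay between 6.46 and 6.51, and Pearson's r across probe sets was 0.997 between the rsa3-1 arrays, 0.997 between the wild type arrays and 0.993 to 0.995 between genotypes. Of 45 spiked-in control probe sets, 44 had their highest value in wild type replicate 1, at a median of 0.94 above the average of the remaining arrays. The part of this in the results below was not tested, and the members' differences are also given without that array.

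AT5G03350 was the member with the high values in rsa3-1. Its RMA value was 8.75 and 9.33 in rsa3-1 replicates 1 and 2, against 7.24 and 6.68 in wild type replicates 1 and 2. Both rsa3-1 arrays were above both wild type arrays, and the lowest rsa3-1 value exceeded the highest wild type value by 1.51. The mean was 9.04 ± 0.41 in rsa3-1 and 6.96 ± 0.40 in wild type (SD, n = 2 each). The log2 difference was 2.08 ± 0.23 (standard error), or 4.23-fold. Of all 22746 probe sets, 17 had a larger positive difference.

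The 2 arrays of a genotype stood far apart for this gene. Its pooled SD within genotypes was 0.41, against a median of 0.10 over all probe sets, and 0.193% of probe sets had a larger one. Among the 6380 probe sets with a mean log2 value of 7 to 9, 0.204% had a larger pooled SD. Differences between single arrays of rsa3-1 and wild type ran from 1.51 to 2.66. The log2 difference was 2.37 without rsa3-1 replicate 1, 1.79 without rsa3-1 replicate 2, 2.37 when wild type replicate 1 was left out and 1.80 when wild type replicate 2 was left out.

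AT3G16530, the chitin-responsive member that was measured, had a smaller difference. Its RMA value was 7.14 and 6.99 in rsa3-1 replicates 1 and 2, against 6.67 and 6.54 in wild type replicates 1 and 2. The genotypes did not overlap, and rsa3-1 was higher in 4 of 4 pairs of arrays, by 0.32 to 0.60. The mean was 7.06 ± 0.10 in rsa3-1 and 6.60 ± 0.09 in wild type (SD, n = 2 each). The log2 difference was 0.46 ± 0.11 (standard error), or 1.38-fold. Its spread within genotypes was ordinary, with a pooled SD of 0.098 that 52.6% of probe sets exceeded. Without wild type replicate 1 the log2 difference was 0.52.

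**Figure D1:**
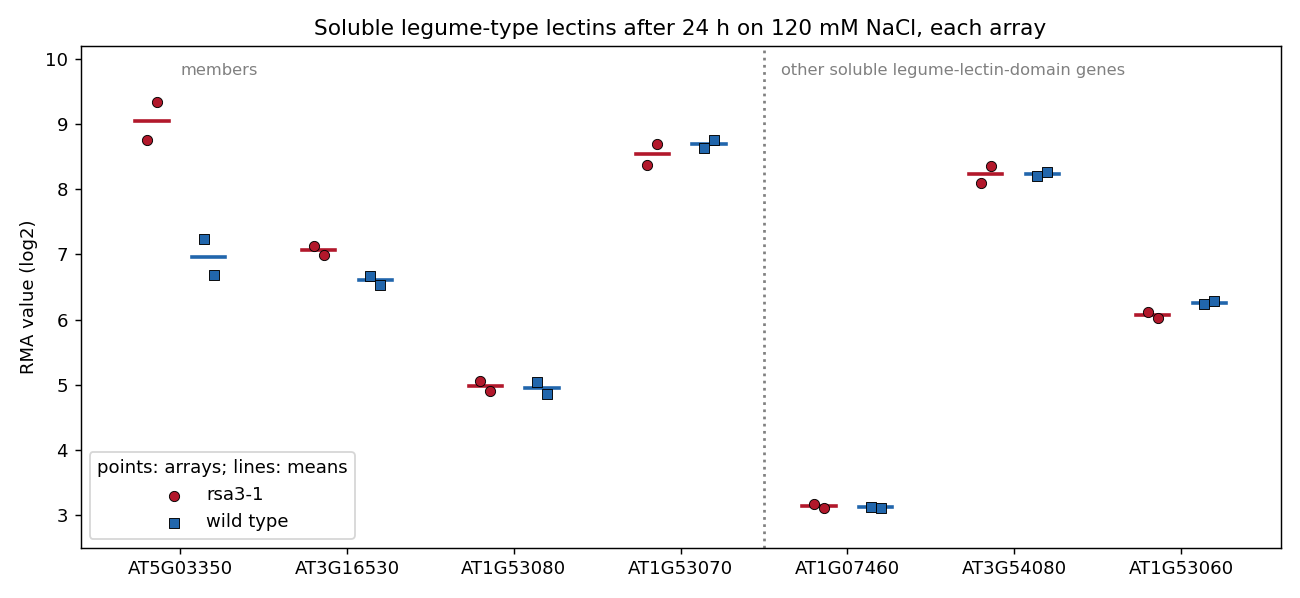
RMA value (log2) of each soluble legume-type lectin gene with a probe set, on each array of rsa3-1 (red circles) and wild type (blue squares), with lines at the means of 2 arrays. For AT5G03350 the rsa3-1 arrays lie at 8.75 and 9.33 and the wild type arrays at 7.24 and 6.68, while AT1G53080 and AT1G53070 overlap between genotypes.

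The genotypes overlapped for AT1G53070 and AT1G53080. AT1G53070 was at 8.37 and 8.70 in rsa3-1 replicates 1 and 2, against 8.63 and 8.76 in wild type replicates 1 and 2. The rsa3-1 value was higher in 1 of 4 pairs of arrays, and the log2 difference was -0.16 with a standard error of 0.13. That difference leaned on rsa3-1 replicate 1, the lowest array, and without it was 0.0082, while without wild type replicate 1 it was -0.22. AT1G53080 was at 5.06 and 4.90 in rsa3-1 replicates 1 and 2, against 5.05 and 4.86 in wild type replicates 1 and 2. Its log2 difference was 0.027 with a standard error of 0.11, and 0.12 without wild type replicate 1. The AT1G53080 values lie below the array medians and 32.3% of probe sets had a lower mean. RMA compresses differences among dim probe sets and no detection calls were used here, so a difference in this transcript may not have been detectable.

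Counted over the 4 measured members, 1 was called higher in rsa3-1 (AT5G03350), 0 were called lower and 3 were not called at an adjusted p under 0.05 in limma. Over all probe sets 1.13% were called, 0.659% higher and 0.466% lower. The genotypes did not overlap for 2 of 4 members, against 38.6% of all probe sets. The median log2 difference of the members was 0.24, against -0.0088 over all probe sets. Nothing is read from these counts, since the members were chosen with the contrast known. In whole seedlings, more cells that express a gene and more RNA per cell cannot be told apart.

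**Figure D2:**
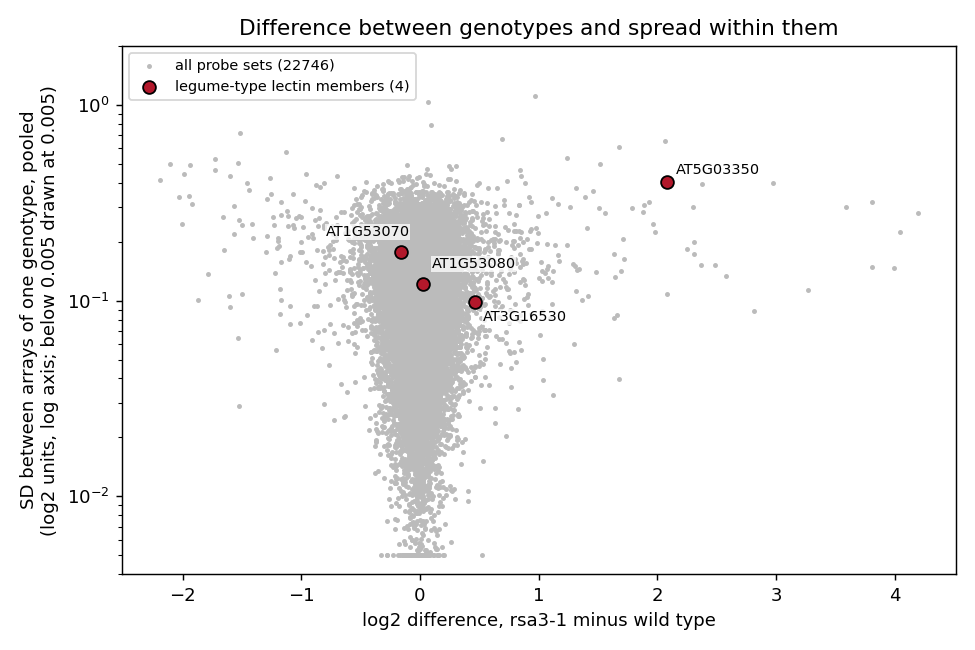
Log2 difference between genotypes (rsa3-1 minus wild type, horizontal axis) against the pooled SD between arrays of a genotype (vertical log axis) for all 22746 probe sets (grey) and the 4 measured members (red). AT5G03350 combines a difference of 2.08 with a pooled SD of 0.41, and the other members lie between -0.16 and 0.46 with pooled SDs of 0.098 to 0.18.

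The soluble legume-lectin domain also occurs in genes outside the member list, and 3 of 5 listed had a probe set named for them. AT1G53060, which adjoins AT1G53070 on the chromosome, was at 6.12 and 6.03 in rsa3-1 replicates 1 and 2, against 6.24 and 6.28 in wild type replicates 1 and 2. Its genotypes did not overlap, and the log2 difference of -0.18 ± 0.099 (standard error) did not pass (limma adjusted p = 0.63). AT3G54080 differed by -0.0022 and AT1G07460 by 0.018. AT1G07460 lay at 3.11 to 3.16 on the 4 arrays, close to 2.57, the lowest value measured. In this group 0 of 3 were called (limma; 0 at an unadjusted p under 0.05), against 1.13% of all probe sets called and 9.68% at an unadjusted p under 0.05. The annotation gives a probe set that names it alone to 0 of the 43 listed L-type lectin receptor kinases, which were not analysed here.

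Location was examined for the members in the RefSeq order of protein-coding genes, chosen after the values were seen. AT1G53060, AT1G53070 and AT1G53080 are consecutive, with log2 differences of -0.18, -0.16 and 0.027. Within 2 genes either side of a member, 7 genes outside the list had a named probe set, and 0 of them were called, against 1.13% of all probe sets. Their log2 differences ran from -0.18 to 0.18. Next to AT5G03350, AT5G03345 was at 10.37 and 10.24 in rsa3-1 replicates 1 and 2, against 10.27 and 10.27 in wild type replicates 1 and 2, a log2 difference of 0.036. AT5G03360, 2 genes away on the other side, differed by -0.042.

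The pattern of AT5G03350 over the 4 arrays was set against those of all named probe sets, by the root mean square difference of mean-centred log2 values. The nearest was AT1G43910, of the AAA-ATPase family, at a distance of 0.16. It was at 7.86 and 8.08 in rsa3-1 replicates 1 and 2, against 6.37 and 5.80 in wild type replicates 1 and 2, so here too wild type replicate 1 was the higher wild type array. AT2G43620, of the chitinase family, lay at 0.215 and RING1, a RING-type ubiquitin ligase, at 0.216. AT2G18690 lay at 0.218 and AT1G56060, of a cysteine-rich transmembrane family, at 0.25. In all 5, rsa3-1 replicate 2 was the highest array, as it was for AT5G03350. Nothing is read from this, since the 5 genes were chosen for their likeness on these same 4 arrays. The SD over the wild type arrays was 0.40 in AT1G43910 and 0.083 or less in the other 4, against 0.40 in AT5G03350. A likeness over 4 arrays rests mainly on the difference between genotypes and describes these arrays only.

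**Figure D3:**
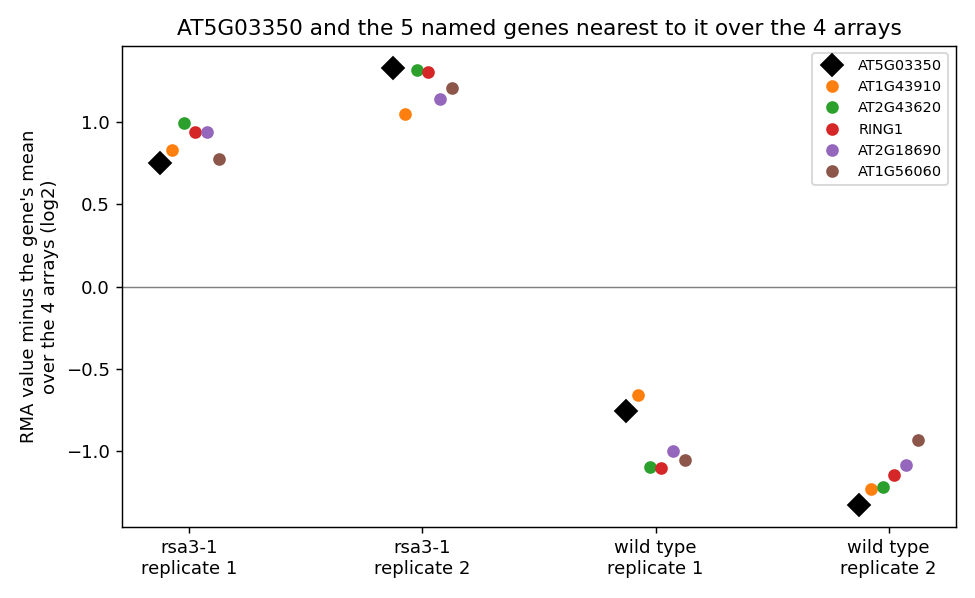
RMA value minus each gene's mean over the 4 arrays (log2, vertical axis) by array, for AT5G03350 (black diamonds) and the 5 named genes nearest to it (coloured circles). All 6 are above their mean on both rsa3-1 arrays and below it on both wild type arrays, and AT1G43910 lies nearest to AT5G03350 at a distance of 0.16.

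Lectins of other folds gave calls in both directions. Of 7 listed GNA-type lectins, which carry the mannose-binding domain of the snowdrop lectin, 2 were measured. AT5G18470 was at 6.10 and 6.52 in rsa3-1 replicates 1 and 2, against 5.49 and 5.43 in wild type replicates 1 and 2. It was higher by 0.85 ± 0.14 (standard error; limma adjusted p = 0.048), in 1 of 2 measured genes, against 0.659% of all probe sets. The call was lost with wild type replicate 1 left out (log2 difference 0.87) and with wild type replicate 2 left out (0.82). It was also lost with rsa3-1 replicate 2 left out (0.64) and kept with rsa3-1 replicate 1 left out (1.05). Each of these fits estimates the spread from fewer arrays. AT3G51710, the other measured gene, differed by 0.026 with a standard error of 0.17.

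Jacalin-related lectins bind sugars through another fold, and the nitrile specifier proteins listed with them steer the breakdown of glucosinolates. Of 46 listed, 20 were measured, all of them jacalin-related lectins and none a nitrile specifier. Of the 20, 1 was called lower, 0 were called higher and 19 did not pass. At an unadjusted p under 0.05 there were 7 of 20, against 9.68% of all probe sets. Among these AT5G35940 was higher in rsa3-1, by 0.27, and the others were lower. AT3G21380 was at 6.06 and 6.20 in rsa3-1 replicates 1 and 2, against 6.73 and 6.74 in wild type replicates 1 and 2. It fell by 0.60 on the log2 scale (standard error 0.10; limma adjusted p = 0.046), in a background where 0.466% of probe sets were called lower. The call was lost whichever array was left out, at log2 differences of -0.68 to -0.53, in fits that estimate the spread from fewer arrays. AT1G52000 was at -0.55, AT1G52100 at -0.53 and AT2G25980 at -0.35 (adjusted p = 0.13, 0.14 and 0.28), and for each the rsa3-1 arrays were both below the wild type arrays. In 8 of the 20 the rsa3-1 values lay wholly below the wild type values, against 20.9% of all probe sets. The median over the list was -0.028, against -0.0088 over all probe sets, and it depended on which genes and arrays entered. It was -0.22 over the 14 genes with a mean log2 value of at least 5 and -0.24 over the 13 of at least 6. With an array left out it was -0.063 without rsa3-1 replicate 1, -0.065 without rsa3-1 replicate 2, -0.097 when wild type replicate 1 was left out and -0.053 when wild type replicate 2 was left out. The annotation gives a probe set that names it alone to 0 of the 22 listed Nictaba-type and PP2 lectins, which were not analysed here.

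**Figure D4:**
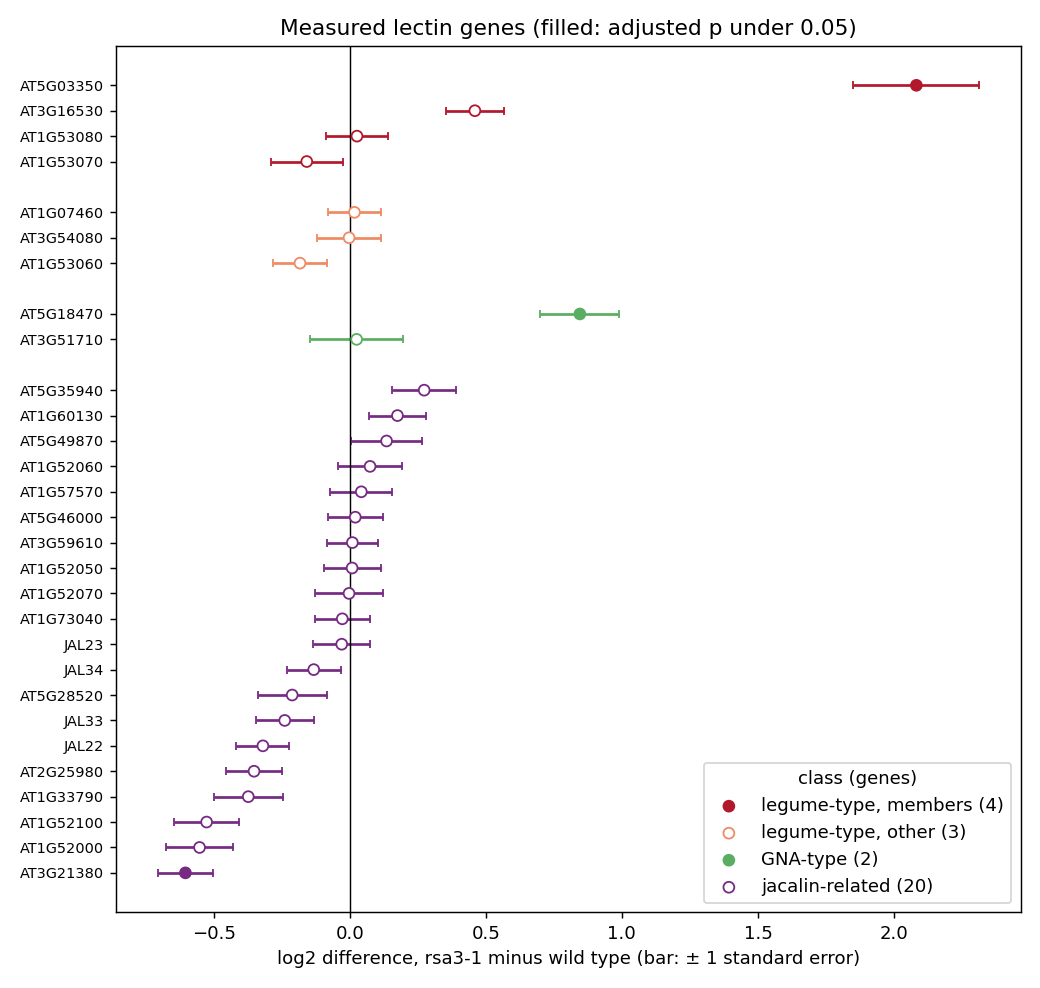
Log2 difference (rsa3-1 minus wild type) with its standard error for every measured gene of 4 lectin groups, filled where the limma adjusted p was under 0.05. AT5G03350 at 2.08 and AT5G18470 at 0.85 lie to the right, AT3G21380 at -0.60 to the left, and the differences of the other genes lie between -0.55 and 0.46.

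Few genes of the responses in which these lectins are known have a probe set named for them. Over all probe sets 1.13% were called and 9.68% had an unadjusted p under 0.05, and the counts that follow stand beside these shares. Of 24 listed salicylic acid response genes 3 were measured and 0 were called in limma (2 at an unadjusted p under 0.05). SAG101, a partner of the immune regulators EDS1 and PAD4, differed by 0.54 with a standard error of 0.11 (adjusted p = 0.086). WRKY53, a transcription factor of senescence and defence, differed by 0.47 and GRX480, a glutaredoxin, by 0.27. These values moved with single arrays, to 0.195 for WRKY53 without rsa3-1 replicate 2, 0.75 for WRKY53 without rsa3-1 replicate 1 and 0.080 for GRX480 without wild type replicate 2. SAG101 and WRKY53 were dim, with 28.4% and 25.3% of probe sets at a lower mean. The limit given for AT1G53080, from RMA compression and the lack of detection calls, applies to them too. Of 21 chitin and pattern-triggered genes 5 were measured and 0 were called (1 at an unadjusted p under 0.05). STZ, a zinc finger repressor, was at 6.43 and 6.81 in rsa3-1 replicates 1 and 2, against 6.13 and 5.84 in wild type replicates 1 and 2. Its log2 difference was 0.63 (limma adjusted p = 0.20) and ran from 0.44 to 0.82 with an array left out. Its pooled SD was exceeded by 5.23% of probe sets. The ubiquitin ligases PUB23 and PUB22 differed by 0.14 and 0.12, and CML42, a calmodulin-like protein, by 0.021, and with an array left out PUB23 ran from 0.068 to 0.21 while PUB22 and CML42 changed sign. Of 18 jasmonate, ethylene and wound genes 2 were measured and 0 were called (1 at an unadjusted p under 0.05), the defensins PDF1.2b at 0.32 and PDF1.2 at -0.20. Without wild type replicate 1 they were at 0.18 and 0.0001. The probe set of PDF1.2b is of the type that may match other transcripts, and it was also dim, with 29.4% of probe sets at a lower mean.

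Of 24 listed cell type markers 10 were measured and 0 were called, against 1.13% of all probe sets, with log2 differences from -0.55 to 0.28. PAP85, EXPA18 and HPR had a limma unadjusted p under 0.05 (0.0081, 0.014 and 0.031), against 9.68% of all probe sets. The genotypes overlapped only for PSAE-1, AT4G26010 and FMA, while 38.6% of all probe sets had no overlap. The mean over 4 photosynthetic shoot markers was 12.95 and 12.99 in rsa3-1 replicates 1 and 2, against 12.83 and 12.86 in wild type replicates 1 and 2. Their log2 differences ran from 0.039 for PSAE-1 to 0.28 for HPR. The mean over 3 root hair markers was 7.07 and 7.20 in rsa3-1 replicates 1 and 2, against 7.45 and 7.29 in wild type replicates 1 and 2. Their log2 differences ran from -0.37 for EXPA18 to -0.046 for AT4G26010. PAP85, the seed protein measured, was at 5.45 and 5.54 in rsa3-1 replicates 1 and 2, against 6.26 and 5.81 in wild type replicates 1 and 2. PYK10, the root marker measured, differed by -0.11 and FMA, the guard cell marker measured, by -0.091. The part of these differences in the lectin values was not tested.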

How the data were processed

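Transcript levels were measured on 4 arrays. The deposited log2 values were made by the authors with RMA, per the submitters' processing notes; the software, its version and the definition of probe sets were not given in the sources used here. They were used as deposited, with the 64 array controls left out of the tests. The platform annotation gave 1 gene for 13513 of 22746 probe sets, several for 503 and none for 8730. Of the first, 13484 matched RefSeq TAIR10.1 genes by gene identifier or locus. Coordinates were left out, since no build is named for the annotation.

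All probe sets were fitted together in limma (version 3.58.1, R version 4.3.3; moderated two-sided test of rsa3-1 minus wild type), with Benjamini-Hochberg adjustment over 22746 and a threshold of 0.05. The number of arrays limits the precision. Variances were moderated with 5.35 prior degrees of freedom. On simulated data for this comparison (22746 probe sets), the share of changed probe sets recovered was 20.7% at 1.5-fold, 90.7% at 2-fold and 99.7% at 4-fold. False calls made up 5.61% of all calls. The simulated variances were drawn from the fitted prior, with independent normal errors and no array standing apart. These shares hold for that setting and were not tested on the real arrays.

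The members, lists and tests were chosen with earlier results of these data known. Named genes are all members, up to 4 genes of smallest p per list, and the 5 genes nearest in pattern to AT5G03350; marker genes and chromosomal neighbours are named besides. Alternatives were 2 scalings, filters at mean log2 values of 5 and 6, a trended and robust variance, weights per array, a block for the replicate number, a 2-fold minimum and each array left out. Deviations of same-numbered arrays correlated at 0.013, which gives no sign of pairing. Figures used Python 3.11.15, pandas 2.3.3 and matplotlib 3.10.9.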

Additional observations from a re-analysis of the deposited data

How the results depend on the processing

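The 256 calls over all probe sets became 135 with a 2-fold minimum, which is stricter by construction, and 42 with the replicate number as a block; the 4 fits that each lack an array gave 102 to 222. The lone array is then assumed to vary like the other genotype. Same-numbered arrays gave no sign of pairing, though 2 arrays per genotype cannot settle whether they were paired. With the block 0 of 4 members, 0 jacalin-related and 0 GNA-type genes were called. With each array left out the members' log2 differences ran from 1.79 to 2.37 for AT5G03350, 0.39 to 0.53 for AT3G16530, -0.068 to 0.12 for AT1G53080 and -0.32 to 0.0082 for AT1G53070, and the sign of the last 2 turned in some of these fits. The 1 jacalin-related call became 3 with trended and robust variance, 0 with a 2-fold minimum and 0 whichever array was left out. The 1 GNA-type call became 0 with array weights or a 2-fold minimum and ranged from 0 to 1 with an array left out; no GNA-type gene passed the filter at 6. The block and each fit lacking an array leave fewer degrees of freedom for the spread, so calls can be lost at an unchanged difference. With the block AT3G16530 kept its 0.46, and its standard error went from 0.11 to 0.089. Its limma unadjusted p still rose from 0.0033 to 0.0052. How much of the lost calls this accounts for was not tested, nor was the cause of the other changes.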
